A study of Danio rerio with 7 samples.

Results

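The time course of the anterior cut edge (ACE) of the amputated zebrafish tail fin was followed in 4 RNA-sequencing libraries, which were the control and ACE at 24, 48 and 72 h post amputation, with 1 library each. The features of the table carry cluster identifiers and no gene names, and clusters with a mean of at least 5 FPKM (fragments per kilobase, relative to all fragments of a library) over these 4 libraries were taken as members. They numbered 28438 of 433380 clusters. The series also holds 3 libraries of the posterior cut edge (PCE) at the same times, which played no part in the choice. The labels name the source of all 7 libraries as tail fin and give no strain, genotype, age, treatment or number of pooled fish. The control is labelled only as control, with neither an edge nor a time, so it is not called an uncut fin here.

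A zebrafish fin regrows after amputation in overlapping stages. Epidermal cells first cover the wound, cells of the stump then lose differentiated features and gather under the wound epidermis as a blastema, and the blastema proliferates and rebuilds bone rays, vessels, nerves and connective tissue. The title of the series names the phosphatase calcineurin as a control of proximodistal polarity in this blastema. Because no cluster has a gene name, neither the tissue label nor any of these stages could be checked against marker genes, and no sequence is shown.

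Values are compared as log2(FPKM + 1), on which a difference of 1 is a 2-fold difference of FPKM + 1. Each group held 1 library, so every difference below compares single libraries, has no replicate check and carries no p-value. Clusters were sorted by size, as higher or lower where the difference from the control was at least 1, and as back where it lay within 0.5 at 72 h. In such bulk libraries, fewer cells of a type and less RNA per cell cannot be told apart.

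Members held 87.2% of all FPKM in the control and 91.5%, 90.1% and 88.1% in ACE at 24, 48 and 72 h. Depth, estimated from the steps of low values relative to the control, was 1.14, 0.901 and 1.14 in ACE at 24, 48 and 72 h. For ACE 24 h the peak of the ratios was no higher in low values than in middle values of 1.2 to 2.5 FPKM. The heights were 4.23 and 4.87 standard deviations, so this estimate is rough. Clusters above 0 numbered 170017 in the control and 122838, 143247 and 181371 in ACE at 24, 48 and 72 h. ACE 24 h and ACE 72 h thus differed in this number at the same estimated depth. The labels give no batch.

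Most members were present throughout. In all 4 libraries 20908 members (73.5%) were above 0, in 3 libraries 3314, in 2 libraries 1890 and in 1 library 2326. A cluster seen in 1 library could be a member only through a high value there and had to differ. Of these, 1277 were seen only in ACE 24 h, 461 only in ACE 48 h, 243 only in ACE 72 h and 345 only in the control. Those of ACE 24 h had a median of 36.1 FPKM and held 3.73% of that library's FPKM, against 0.451% to 0.802% for the single-library members of the other 3 libraries. The PCE libraries hardly held them, as 107 of the 1277 (8.38%) were above 0 in any of the 3. This was low for the single-library members of ACE 48 h (18.9%), ACE 72 h (15.2%) and the control (13.9%) too, against 90.9% of members seen in 2 to 4 libraries. Counts below are therefore also given for the 20908 members above 0 in all 4 libraries. Around the minimum, 2173 members had a mean of 5 to under 5.5 FPKM, and 2668 clusters with a mean of 4.5 to 5 FPKM were left out.

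The first question was how far ACE lay from the control at each time. At 24 h, 9347 members were higher (32.9%) and 6836 lower (24.0%) than in the control. At 48 h, 9369 were higher (32.9%) and 6475 lower (22.8%), and at 72 h 8005 were higher (28.1%) and 4987 lower (17.5%). In all, 16183, 15844 and 12992 members were past 1 at the 3 times, and 25.3%, 26.6% and 33.5% lay within 0.5 of the control. ACE 72 h was thus the nearest of the 3 to the control. It was also the nearest in the number of clusters above 0, and a link between these was not tested. Among members above 0 in all 4 libraries, 5946 were higher (28.4%) and 4183 lower (20.0%) at 24 h, 6538 higher (31.3%) and 4129 lower (19.7%) at 48 h, and 5532 higher (26.5%) and 3148 lower (15.1%) at 72 h. Here 48 h, with 10667 past 1, lay farther from the control than 24 h, with 10129, and 72 h was again the nearest, with 8680.

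Among all members, differences of 3 or more thinned out with time. They numbered 3711 higher and 2699 lower at 24 h, 3303 and 2190 at 48 h, and 2090 and 1098 at 72 h. Many of those at 24 h belonged to clusters missing from some library, since 828 of the higher ones were above 0 in all 4 libraries, against 1059 of those at 48 h. At the size threshold itself, 538 members lay 0.9 to 1 above the control at 24 h and 473 lay 1 to 1.1 above it.

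**Figure D1:**
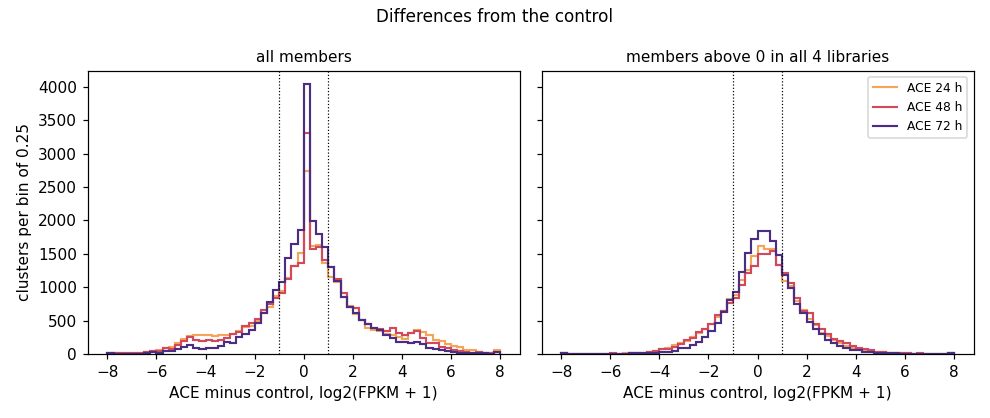
Number of clusters (vertical axis, per bin of 0.25) by their difference from the control in log2(FPKM + 1) (horizontal axis; values beyond 8 are in the end bins) in ACE at 24, 48 and 72 h, for all 28438 members (left) and the 20908 above 0 in all 4 libraries (right). Dotted lines mark differences of 1; the outer shoulders of the left panel are nearly gone on the right, and the 72 h curve is the narrowest in both.

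Whether more members were higher or lower than the control depended on how they were chosen. Of members past 1, 57.8%, 59.1% and 61.6% were higher in ACE at 24, 48 and 72 h, but the minimum was taken over 3 ACE libraries and 1 control and so favours clusters high in ACE. With the control and the mean of ACE weighted equally in the minimum, the shares were 43.0%, 44.1% and 45.5%, and with quantile normalization of the members 48.8%, 50.2% and 50.2%. With no minimum they were 42.3%, 46.0% and 50.3%. The balance of higher and lower members is therefore not read as a result. The narrower difference at 72 h held in each of these settings: under equal weights 17128, 16707 and 13832 clusters were past 1 at 24, 48 and 72 h.

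The 3 differences share the 1 control library, so a control that stood apart for any reason would move all of them together. To size this, each of the 4 libraries was set against the other 3 in the same way, a count in which the minimum mean treats them alike. The control lay below all 3 ACE libraries by at least 1 in 4591 members (16.1%) and above them in 3068 (10.8%). ACE 24 h lay below the other 3 in 2096 and above them in 2615, ACE 48 h in 1238 and 1714, and ACE 72 h in 488 and 1099. The control stood apart most often and ACE 72 h least often, in both directions. Among members above 0 in all 4 libraries the control lay below the rest in 3342 (16.0%) and above in 1838 (8.79%), while each ACE library stood apart in 363 to 961 members in either direction. With 1 control, a difference of that library and a difference between control and cut tissue cannot be told apart.

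**Figure D2:**
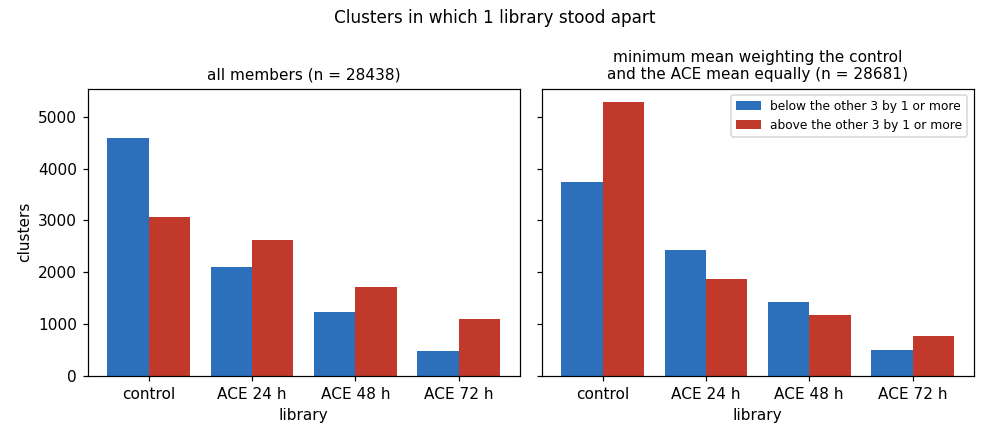
Number of clusters (vertical axis) in which a library (horizontal axis) lay below (blue) or above (red) each of the other 3 by at least 1 in log2(FPKM + 1), for the 28438 members (left) and for 28681 clusters chosen with the control and the ACE mean weighted equally (right). The control has the highest bars and ACE 72 h the lowest in both panels, while the order of blue and red in the control turns round.

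Most members ever past 1 were so at 24 h already. A count by first time credits the earliest time with every member past 1 there, so it does not show that 24 h led. Counted alike, 9369 members were higher and 6475 lower at 48 h, against 9347 and 6836 at 24 h. Of members ever higher than the control by 1, 9347 (67.8%) were so at 24 h already, 2835 (20.6%) came first past 1 at 48 h from a position within 1, and 877 (6.36%) first at 72 h. Of members ever lower, 6836 (73.1%) were so at 24 h, 1546 (16.5%) came first at 48 h and 493 (5.27%) first at 72 h. The rest had passed 1 in the opposite direction before. Between 24 and 48 h, 2880 members that were higher at 24 h came to lie within 1, among them those seen only in ACE 24 h, and 2835 moved the other way. Arrivals above 0 in all 4 libraries outnumbered departures, with 1909 that became higher at 48 h and 1342 that came to lie within 1.

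The share still past 1 at 72 h was larger for members past 1 at 24 h than for those first past it at 48 h, and the share back was smaller, in both directions and also above 0 in all 4 libraries. The groups were chosen unlike each other. Those first past 1 at 48 h had to lie within 1 of the same control at 24 h, while the others include members past 1 at both times. This by itself favours such an order, so it is not read as a result. Of those higher at 24 h, 5253 (56.2%) were still higher at 72 h, 2557 (27.4%) were back within 0.5 of the control and 391 (4.18%) lay more than 0.5 below it. Of those first higher at 48 h, 1384 (48.8%) were still higher and 847 (29.9%) were back. Of members lower at 24 h, 3589 (52.5%) were still lower at 72 h, 1432 (20.9%) were back and 752 lay more than 0.5 above the control. Among those first lower at 48 h, 627 (40.6%) were still lower and 442 (28.6%) were back.

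Which direction returned more often depended on the clusters counted. Among members above 0 in all 4 libraries, 15.4% of those higher at 24 h were back at 72 h and 63.3% still higher, against 23.5% back and 49.9% still lower among those lower at 24 h. Of those first higher at 48 h, 19.8% were back and 49.2% still higher, and of those first lower at 48 h, 29.9% were back and 38.3% still lower. With equal weights in the minimum, 24.9% of the higher and 17.7% of the lower were back. Of members past 1 at 24 h, the share still past 1 at 72 h ran from 49.9% to 63.3% over these 3 sets and both directions.

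**Figure D3:**
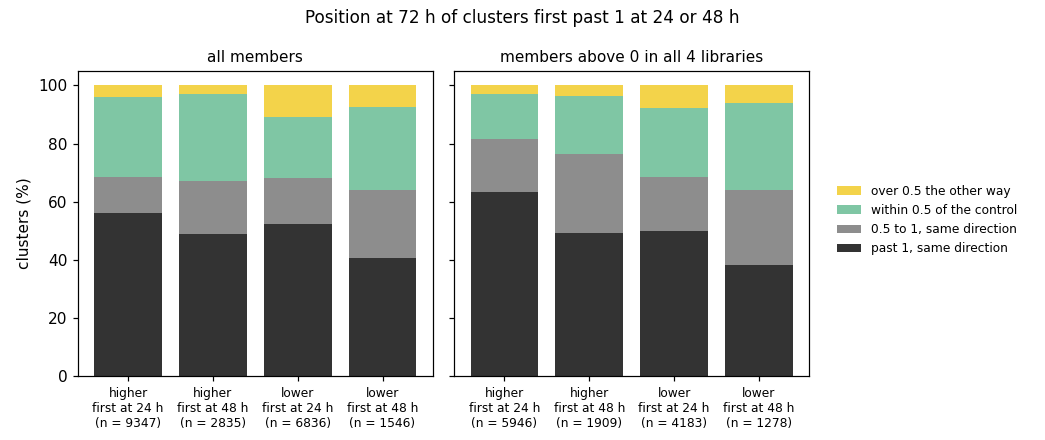
Position at 72 h relative to the control, as percent of clusters (vertical axis), for clusters first higher or lower than the control by at least 1 at 24 or 48 h (bars, with n), for all members (left) and members above 0 in all 4 libraries (right). In each bar the part still past 1 (black) is the largest, from 38.3% to 63.3%, and the part back within 0.5 (green) runs from 15.4% to 29.9%.

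Members that stayed changed made up 26.9% of the set. At all 3 times 4591 were higher (16.1%) and 3068 lower (10.8%), 7659 together. The higher ones held 2.31% of all FPKM in the control and 13.7%, 18.8% and 12.9% in ACE at 24, 48 and 72 h. The lower ones held 19.1% in the control and 2.84%, 2.50% and 4.57% in ACE. Both contrasts with the control were largely fixed in advance, since the same values sorted the members. Of the higher ones, 1249 were listed at 0 in the control, and of the lower ones 345 were listed at 0 in all 3 ACE libraries.

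Higher members most often stood farthest from the control at 48 h, and lower ones at 24 or 48 h. The largest difference fell at 24 h in 1636 of the higher members (35.6%), at 48 h in 2189 (47.7%) and at 72 h in 766 (16.7%). For the lower members it fell at 24 h in 1781 (58.1%), at 48 h in 974 (31.7%) and at 72 h in 313 (10.2%), and for those above 0 in all 4 libraries in 41.3%, 42.5% and 16.2%. In 958 of the higher members (20.9%) and 707 of the lower ones (23.0%) the 3 differences lay within 0.5 of each other. Over all 20908 members above 0 in all 4 libraries the median difference was also largest at 48 h, at 0.33, against 0.24 at 24 h and 0.26 at 72 h. The peak at 48 h is therefore not read as particular to the higher members. At 72 h, 1634 higher members (35.6%) and 1438 lower ones (46.9%) lay nearer to the control than at their extreme by at least 1. For those above 0 in all 4 libraries the shares were 27.7% and 37.3%. The extreme is the largest of the 3 differences, which favours such a result at any time. The count was made for 72 h alone, so it is not read as a return. Among those above 0 in all 4 libraries, the median level of the higher members was 1.97 in the control and 4.31, 4.48 and 4.12 in ACE at 24, 48 and 72 h, and that of the lower members was 4.85 in the control and 2.58, 2.53 and 2.94 in ACE, as log2(FPKM + 1).

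Named clusters are those with the largest sizes among members above 0 in all 4 libraries, 2 per direction for each kind of time course, and their size is a condition of naming. Cluster-118330.174086 had 0.15 FPKM in the control, and in ACE 1021 at 24 h, 1829 at 48 h and 814 FPKM at 72 h. Cluster-118330.128027 had 0.45 FPKM in the control, and in ACE 528 at 24 h, 627 at 48 h and 520 FPKM at 72 h. Both were near 0 in the control and high at every ACE time, with differences of 9.47 to 10.64 for Cluster-118330.174086 and of 8.49 to 8.76 for Cluster-118330.128027. In the PCE libraries, Cluster-118330.174086 was listed at 0 at 24 h and stood at 780 and 873 FPKM at 48 and 72 h, and Cluster-118330.128027 stood at 0.90 and 683 FPKM at 24 and 48 h and was listed at 0 at 72 h.

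Among the lower ones, Cluster-118330.127755 had 1634 FPKM in the control, and in ACE 2.95 at 24 h, 3.60 at 48 h and 3.30 FPKM at 72 h. Cluster-118330.130062 had 1721 FPKM in the control, and in ACE 1.76 at 24 h, 1.34 at 48 h and 4.88 FPKM at 72 h. Both were among the abundant clusters of the control and almost absent from ACE at every time, with differences of -8.69 to -8.47 for Cluster-118330.127755 and of -9.52 to -8.19 for Cluster-118330.130062. In PCE at 24, 48 and 72 h they stood at no more than 10.2 FPKM.

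Members that changed and came back numbered 3341 higher (11.7%) and 1801 lower (6.33%) at 24 or 48 h, all within 0.5 of the control at 72 h. The higher ones were mostly clusters not seen in every library. Of the 3341, 2029 were listed at 0 in both the control and ACE 72 h, among them the 1277 seen only in ACE 24 h and the 461 seen only in ACE 48 h. Above 0 in all 4 libraries, 1263 were higher and back (6.04%) and 1338 lower and back (6.40%). Of these 1263, 470 were past 1 at 24 h alone, 378 at 48 h alone and 415 at both times. Of the 1338, 592 were past 1 at 24 h alone, 382 at 48 h alone and 364 at both.

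How far they moved, set against the members that stayed changed, depended on the clusters counted. The median difference from the control at 24 h was 2.63 for all 3341 higher and back, against 2.51 for those higher at all 3 times. Above 0 in all 4 libraries it was 1.23 against 2.12. The values for higher and back include members past 1 at 48 h alone. Above 0 in all 4 libraries, the median of the higher ones was 2.91 in the control and 4.22, 4.12 and 3.05 in ACE at 24, 48 and 72 h, and that of the lower ones 3.88 in the control and 2.73, 2.97 and 3.75 in ACE, as log2(FPKM + 1).

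Cluster-118330.197518 had 1.03 FPKM in the control, and in ACE 324 at 24 h, 1.18 at 48 h and 0.64 FPKM at 72 h, a difference of 7.32 at 24 h alone. Cluster-118330.128837 had 0.48 FPKM in the control, and in ACE 69.3 at 24 h, 91.5 at 48 h and 1 FPKM at 72 h, and so stayed high through 48 h. In PCE at 24, 48 and 72 h, Cluster-118330.197518 stood at 21.1, 46.0 and 17.1 FPKM, without the single peak, and Cluster-118330.128837 at 143 and 187 FPKM and listed at 0.

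In the other direction, Cluster-118330.133296 had 44.1 FPKM in the control, and in ACE 15.2 at 24 h, 0.09 at 48 h and 46.1 FPKM at 72 h, a dip that was deepest at 48 h. Cluster-118330.94976 had 52.5 FPKM in the control, and in ACE 0.57 at 24 h, 5.70 at 48 h and 57.2 FPKM at 72 h, a dip that was deepest at 24 h. In PCE, Cluster-118330.133296 was listed at 0 at 24 and 48 h and stood at 12.4 FPKM at 72 h, while Cluster-118330.94976 stood at 28.6, 37.8 and 27.3 FPKM.

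The clusters with the highest single values belong here too, and were singled out after their values were seen. Cluster-118330.129487 had the highest value of the 4 libraries. It had 8232 FPKM in the control, and in ACE 100815 at 24 h, 20328 at 48 h and 9852 FPKM at 72 h, which was 0.456% of all FPKM in the control and 4.87%, 1.06% and 0.564% in ACE. Cluster-118330.128325, which had the highest value of all 7 libraries, differed from the control by 1.49, 1.93 and 0.27 in ACE at 24, 48 and 72 h and by 0.64, 4.49 and 4.60 in PCE. Its return at 72 h was seen in ACE, while in PCE it was at its highest then. The higher members that came back held 3.85% of all FPKM in the control and 16.4%, 9.01% and 4.63% in ACE at 24, 48 and 72 h. Cluster-118330.129487 alone made up 29.7% of their sum in ACE 24 h. The rise and fall of these shares was largely fixed by the sorting into this kind.

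Members past 1 at 72 h alone were fewer than those past 1 at 24 h alone or at 48 h alone, but not rare beside them. Above 0 in all 4 libraries, those higher at 24, 48 or 72 h alone numbered 883, 940 and 625, and those lower 963, 755 and 463. Members within 1 of the control at 24 and 48 h and past 1 at 72 h numbered 877 higher (3.08%) and 493 lower (1.73%), and 625 (2.99%) and 463 (2.21%) of them were above 0 in all 4 libraries. Of these, 140 of the 625 and 134 of the 463 lay within 0.5 of the control at both earlier times. Over all 20908 members, 28.2% lay within 0.5 at 24 h and 26.4% at 48 h, and the share at both times was not counted. The low shares are therefore not read as an earlier start. For the 625, the median level was 2.85 in the control and 3.12, 3.33 and 4.34 in ACE at 24, 48 and 72 h, and for the 463 it was 4.03 in the control and 3.84, 3.74 and 2.62 in ACE, as log2(FPKM + 1).

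Cluster-118330.132865 had 0.56 FPKM in the control, and in ACE 1.03 at 24 h, 0.78 at 48 h and 21.3 FPKM at 72 h. Cluster-118330.251943 had 0.47 FPKM in the control, and in ACE 0.89 at 24 h, 0.69 at 48 h and 18.8 FPKM at 72 h. Both were at or near 1 FPKM until 48 h and differed from the control by 3.84 and 3.75 at 72 h. In PCE 72 h they stood at 9.77 and 1.32 FPKM.

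On the lower side, Cluster-118330.132755 had 359 FPKM in the control, and in ACE 341 at 24 h, 416 at 48 h and 41.1 FPKM at 72 h. Cluster-118330.129616 had 15.9 FPKM in the control, and in ACE 12.5 at 24 h, 14.0 at 48 h and 1.03 FPKM at 72 h. Both held the control level through 48 h and were lower by 3.09 and 3.06 at 72 h. In PCE at 24, 48 and 72 h, Cluster-118330.132755 stood at 712, 517 and 15.5 FPKM, and Cluster-118330.129616 was listed at 0 at 24 and 72 h with 12.6 FPKM at 48 h.

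**Figure D4:**
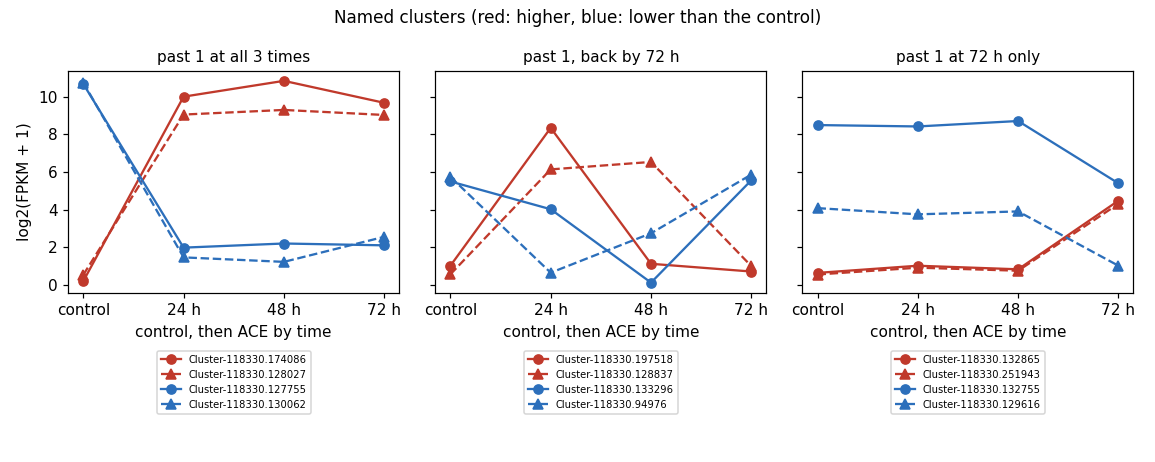
Level of the 12 named clusters as log2(FPKM + 1) (vertical axis) in the control and in ACE at 24, 48 and 72 h (horizontal axis), with 1 library per point, red for clusters higher and blue for clusters lower than the control. The left panel shows a step at 24 h that lasts, the middle panel a peak or dip that is gone at 72 h, and the right panel flat levels until 48 h.

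Successive ACE libraries can be compared without the control. From 24 to 48 h, 5598 members were higher (19.7%) and 5118 lower (18.0%) at 48 h, and from 48 to 72 h 4781 were higher (16.8%) and 4693 lower (16.5%) at 72 h. Above 0 in all 4 libraries, 2983 were higher (14.3%) and 2459 lower (11.8%) at 48 h, and 2602 higher (12.4%) and 2614 lower (12.5%) at 72 h. Both steps were smaller than that between ACE 24 h and the control, in which 56.9% of members were past 1, against 37.7% and 33.3%. The step from 24 to 72 h was larger than either of its parts, with 42.3% past 1. How alike the levels were depended on the clusters included. Across members above 0 in all 4 libraries, Pearson's r of the levels was 0.808 between ACE 48 h and ACE 24 h, 0.816 between ACE 72 h and ACE 48 h, and 0.751 between ACE 72 h and ACE 24 h, while ACE at 24, 48 and 72 h and the control gave 0.566, 0.518 and 0.649. Across all members the values between ACE libraries were 0.477, 0.660 and 0.436 in the same order, and ACE at 24, 48 and 72 h and the control gave 0.262, 0.363 and 0.567. In both sets ACE 72 h had the highest r with the control of the 3 ACE libraries, while the order of 24 and 48 h turned round, and only above 0 in all 4 libraries was each pair of ACE libraries closer than any pair with the control. Clusters are not independent and all libraries share the feature set, so these are descriptions.

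A set of 6504 members (22.9%) was past 1 at no time. All of them were above 0 in all 4 libraries, which the minimum mean and the size threshold together fix in advance. Of these, 1870 lay within 0.5 of the control at all 3 times. The 6504 held 41.0% of all FPKM in the control and 39.7%, 37.5% and 41.3% in ACE at 24, 48 and 72 h, the largest share of any kind of time course described here. Such members were most frequent among the most abundant ones: 19.4% of the 13402 members with a mean of 5 to under 10 FPKM never passed 1, against 45.2% of the 270 members at 500 FPKM and more. Among members above 0 in all 4 libraries the share was 30.1% at 5 to under 10 FPKM and ran between 27.2% and 32.2% up to 500 FPKM with no trend, against 46.2% at 500 and more. Members higher at all 3 times were most frequent in the middle of the range, with 25.7% at 50 to under 100 FPKM, against 12.6% at 5 to under 10 and 16.7% at 500 and more. Members higher at 24 or 48 h and back by 72 h ran from 13.5% at the lowest means to 3.33% at the highest. Among members above 0 in all 4 libraries that decline was smaller, with 6.09% and 3.41%. These means are taken over the same 4 libraries that sorted the members. A high level at all 3 ACE times by itself raises the mean, more than a high level at 1 time does. How often the higher members occur along the range is therefore not read as a result.

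The PCE libraries give the same clusters in tissue that the choice of kinds did not use, with 1 library per time and the same control. Members held 57.4% of all FPKM in PCE 24 h, against 84.6% in PCE 48 h and 85.1% in PCE 72 h. The median of PCE minus ACE at 24 h was -0.56 over all 20908 members, and -0.96 in those higher at all 3 times. A high ACE level was part of the choice of the latter and the PCE level was not, which by itself makes this difference more negative. Members higher at all 3 times, above 0 in all 4 libraries, had medians of 4.31, 4.48 and 4.12 in ACE at 24, 48 and 72 h and of 3.40, 4.39 and 3.66 in PCE. Members lower at all 3 times had 2.58, 2.53 and 2.94 in ACE and 2.60, 2.10 and 1.86 in PCE. For the lower members the levels lay together at 24 h and apart at 72 h, where the ACE median was nearer to the control level of 4.85 than before. Their median of PCE minus ACE was -0.06 at 24 h and -1.09 at 72 h, against -0.56 and -0.93 over all 20908. A low ACE level was part of the choice of these members and the PCE level was not, which by itself makes this difference less negative. Neither time is therefore read as a difference between the edges. Cluster by cluster, the median step from 48 to 72 h in these lower members was 0.40 in ACE and -0.04 in PCE, against -0.04 in ACE and -0.51 in PCE over all 20908. In both edges it thus lay above the step of all members. The lower members were nearer to the floor in PCE 48 h, with a median of 2.10 and 82.8% above 0. Over all 20908 these were 3.45 and 92.5%. A level near 0 has little room to fall, so the PCE steps of the 2 sets are not alike. Whether a return was seen in ACE alone is therefore not read from these steps. Members past 1 at no time had 3.75, 3.76 and 3.75 in ACE, 3.31, 3.54 and 3.00 in PCE and 3.64 in the control, so PCE 72 h was low for these members as well. PCE 72 h also had the fewest clusters above 0 of the 7 libraries, with 96680, against 181371 in ACE 72 h. No alternative scaling is given for the PCE libraries. A difference of that library and a difference between the edges cannot be told apart.

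Members lower at 24 or 48 h and back by 72 h lay far apart between the edges at 72 h. Their medians were 2.73, 2.97 and 3.75 in ACE at 24, 48 and 72 h, 2.45, 2.51 and 2.07 in PCE and 3.88 in the control. At 72 h the median difference of PCE minus ACE was -1.69, against -0.93 over all 20908 members and -0.91 over those past 1 at no time. The ACE 72 h level was part of their choice and the PCE level was not, which by itself widens this gap. A high control was part of it too, which by itself raises the share lower than the control in any other library. In the members higher at 72 h only, chosen for a high ACE 72 h level, it was -1.73. Of the 1338 members lower and back in ACE, 64.1%, 65.6% and 76.4% were lower than the control by at least 1 in PCE at 24, 48 and 72 h, against 35.8%, 30.3% and 42.9% of all 20908. The higher members that came back had medians of 4.22, 4.12 and 3.05 in ACE and 3.53, 3.77 and 3.17 in PCE. Differences between the edges have no replicate check either.

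**Figure D5:**
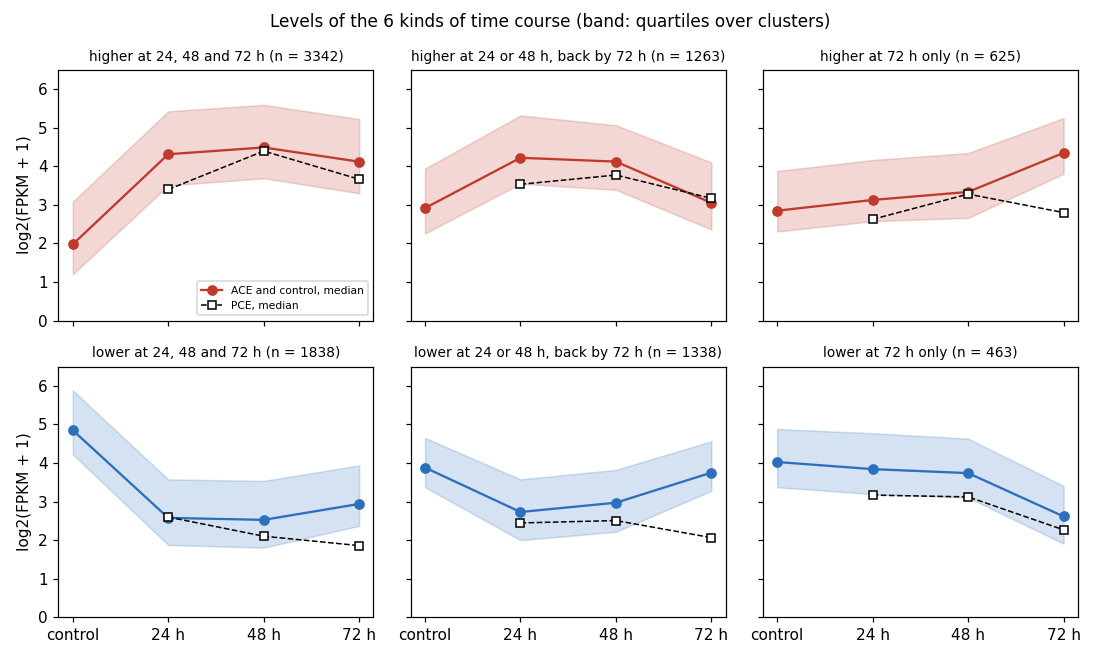
Median level as log2(FPKM + 1) (vertical axis) of members above 0 in all 4 libraries in the control and at 24, 48 and 72 h (horizontal axis), for 6 kinds of time course; coloured lines join the control and ACE, bands are quartiles over clusters, and open squares are PCE medians. In the lower row, the middle panel has ACE back at 3.75 at 72 h and PCE at 2.07.

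The identifiers themselves carry a first and a second number, and members were not spread evenly over first numbers. A single first number held 26681 members (93.8%), and the other 1757 were spread over 1715 first numbers. No source used here says what these numbers mean. Of the 1757, 1093 (62.2%) were higher at 24 or 48 h and back by 72 h, against 8.43% of the large group, and 15.5% were above 0 in all 4 libraries, against 77.3%. Outside the large group lay 820 of the 1277 members seen only in ACE 24 h (64.2%), 206 of the 461 seen only in ACE 48 h (44.7%), 63 of the 243 seen only in ACE 72 h (25.9%) and 63 of the 345 seen only in the control (18.3%). Above 0 in all 4 libraries, 8.09% of the members outside the large group and 6.01% of those in it were higher and back, so the wide gap in that share went with clusters missing from some library.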

How the data were processed

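Per the labels' protocols, Trizol was used for RNA and an NEBNext Ultra kit for the libraries. The authors deposited 1 table of FPKM values, with 1 column for each of 7 libraries. HISAT2 2.0.5, HTSeq 0.9.1 and edgeR are named in the submitters' processing notes, with no role or order. No genome build and no account of how clusters were made is given in the sources used here. None (0) of the 433380 identifiers was found in the zebrafish reference tables. Number of reads is not stated, so depth is relative, from the commonest ratio of low values (0.15 to 0.3 FPKM). FPKM depends on feature length and on the other features of a library, and transcripts that are nearly identical may be spread over several clusters.

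Members had a mean of at least 5 FPKM over 4 libraries, and values were analysed as log2(FPKM + 1), which understates differences of low clusters. Sizes were counted with no test, since each group held 1 library. The sorting into kinds was run on simulated data with planted changes well past the threshold, little noise and no values of 0. This checks the code and cannot size errors of sorting in these libraries. Clusters were named among members above 0 in all 4 libraries, 2 per direction. For those past 1 at all 3 times the smallest difference ranked them, for those back by 72 h the largest difference at 24 or 48 h, and for those past 1 at 72 h only the difference at 72 h, within 0.5 of the control before. Members, lists and rules were chosen with earlier results of these data known. Python 3.11.15, numpy 2.4.6, pandas 2.3.3 and matplotlib 3.10.9 were used. Alternatives were another pseudocount, other minimums, median-of-ratios scaling, quantile normalization, a size threshold of 1.5-fold, a return within 0.25 and leaving out a library.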

Additional observations from a re-analysis of the deposited data

How the results depend on the processing

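Of 120 alternative values of 16 counts, 87 stayed within 1.5 times the reported count and 33 did not. A pseudocount of 0.1 and median-of-ratios scaling moved none so far, although that scaling shifted the median log2 difference from the control by -0.03 at 24 h, -0.08 at 48 h and -0.14 at 72 h. All 36 alternative values of the 12 named clusters kept their direction and stayed past 1. Large size was a condition of naming, so this outcome was largely fixed in advance. Only the difference that ranked each cluster was followed, and not its return to the control or its flat start.

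With no minimum mean, which tests more clusters, higher and lower counts were 36220 and 49382 at 24 h, 39751 and 46583 at 48 h, 35334 and 34848 at 72 h, 7662 and 25649 at all 3 times, 34390 and 11313 for back by 72 h, 17160 and 1811 for 72 h only, 36061 and 29491 from 24 to 48 h, and 34622 and 27859 from 48 to 72 h. With members above 0 in all 4 libraries, which tests fewer, 5946 were higher and 4183 lower at 24 h, 4129 lower at 48 h, 3148 lower at 72 h, 1838 lower at all 3 times, 1263 higher and back, 2983 higher and 2459 lower from 24 to 48 h, and 2602 higher and 2614 lower from 48 to 72 h. Equal weights in the minimum, chosen after seeing the data, gave 7537 lower at 72 h and 5282 lower at all 3 times. Quantile normalization gave 797 lower at 72 h only, and the cause was not tested. A threshold of 1.5-fold gave 7178 higher and 7260 lower from 48 to 72 h, and a return within 0.25 gave 894 lower and back.

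Leaving out 1 ACE library gave 5253 to 6147 members higher and 3589 to 4609 lower at both remaining times, the last without ACE 72 h. No paired analysis was possible because each group held 1 library. Read numbers are unknown, so differences of low clusters carry a counting error that could not be sized.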

Other observations

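Some members crossed the control level within the time course. In 1201 members (4.22%) a value higher than the control by at least 1 at one time went with a value lower by at least 1 at another, and 436 of these were above 0 in all 4 libraries. The most frequent crossing was lower at 24 h, within 1 at 48 h and higher at 72 h, in 170 members. Of these, 97 were above 0 in all 4 libraries. Next came lower at 24 h and higher at 48 and 72 h, in 156, of which 49 were above 0 in all 4. Its reverse, higher at 24 h and lower at 48 and 72 h, was seen in 119 members, 9 of them above 0 in all 4 libraries. Above 0 in all 4 libraries, the pattern next after the 97 was another. It was higher at 24 h, lower at 48 h and within 1 at 72 h, in 59. Members with a gap at 48 h were more frequent: 605 were higher at 24 and 72 h and within 1 at 48 h, and 441 were lower at 24 and 72 h and within 1 at 48 h.

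Of the 1715 first numbers outside the large group, 30 had 2 or more members, 72 in all. In 6 of these 30, all members had the same state at all 3 times.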
